A study of Rattus norvegicus with 12 samples.

Results

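The EGF receptor family and its ligands were described here from raw RNA-Seq counts of rat striatum, over all 12 libraries. The genes were chosen by symbol, as the 4 receptors *Egfr*, *Erbb2*, *Erbb3* and *Erbb4* and the 6 ligands *Nrg1*, *Nrg2*, *Nrg3*, *Egf*, *Tgfa* and *Hbegf*, with earlier results of these counts in view. *Egfr* in particular was known to have passed the threshold between the abstinence groups. For that reason the MA24 against MA12 values are given as a description of where each gene stood among all genes, not as an independent test. Of the 10 genes, 9 had a row among the 17337 genes of the table, and *Nrg3* was not analysed here. All 9 passed the filters on low counts and low variance in each of the 3 comparisons.

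The rats were adult male Sprague–Dawley rats of wild-type genotype, and every library carried the treatment label methamphetamine (MA). The MA12 rats (numbered 21, 31, 4N and 7N) self-administered MA for 16 days and then spent 12 h in abstinence, and the MA24 rats (9N, 14N, 15N and 16N) spent 24 h. The third group was labelled non-addicted (rats 9, 11, 12 and 13), and their labels give the same 16 days of MA self-administration and no length of abstinence. The sources used here do not say what set these rats apart as non-addicted, or how long after the last session they were sampled. Each group held 4 libraries of 1 rat each, and total counts ran from 17908962 to 23850284 per library. All rats of the MA24 group had a number ending in N, none of the non-addicted rats did, and the MA12 group held 2 of each kind. What the N stands for was not given. The kind of number therefore cannot be told apart from the group in the comparison of non-addicted with MA24 rats, and length of abstinence cannot be told apart from clock time of sampling between MA12 and MA24. The summed level of 12 striatal projection neuron markers was 14283 to 18814 CPM (counts scaled to library size) in the 12 libraries, and that of 5 cortical glutamatergic neuron markers was 2.86 to 10.2 CPM.

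ErbB receptors are membrane tyrosine kinases that dimerise when a ligand binds. EGFR binds EGF, TGF-alpha and HB-EGF. ErbB3, whose kinase is weak, and ErbB4 bind neuregulins, and ErbB2, which has no known ligand, is the preferred partner of the others. In the forebrain, ErbB4 is best known in GABAergic interneurons, ErbB3 in oligodendrocytes, and EGFR in progenitor cells of the subventricular zone that lines the striatum. TGF-alpha is abundant in the striatum among brain regions. These roles are background. In bulk tissue, fewer cells of a type and less RNA per cell cannot be told apart.

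*Egfr* and *Erbb4* were the pair of members whose levels moved together and passed the threshold between MA12 and MA24, so the 250 bases before their transcription starts are shown, 5′ to 3′ in the direction of the gene. The sequences are RefSeq's (rat assembly GRCr8, another build than the rn6 of the counts), at chr14:95378376-95378625 on the plus strand for *Egfr* and chr9:78045607-78045856 on the minus strand for *Erbb4*. Capitals mark the GC box GGGCGG, searched on both strands, a motif of Sp1 family factors.
Egfr: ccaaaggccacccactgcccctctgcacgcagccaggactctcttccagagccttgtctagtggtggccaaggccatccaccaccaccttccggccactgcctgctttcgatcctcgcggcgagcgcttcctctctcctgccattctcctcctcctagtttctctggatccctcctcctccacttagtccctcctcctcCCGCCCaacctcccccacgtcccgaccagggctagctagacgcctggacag
Erbb4: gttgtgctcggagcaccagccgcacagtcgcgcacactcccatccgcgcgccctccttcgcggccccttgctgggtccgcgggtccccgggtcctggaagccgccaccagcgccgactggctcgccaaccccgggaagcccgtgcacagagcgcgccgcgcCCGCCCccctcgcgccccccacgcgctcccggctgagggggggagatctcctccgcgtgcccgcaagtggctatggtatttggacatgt
Each window held 1 GC box, read on the opposite strand as CCGCCC. GC content was 63.6% for *Egfr* and 73.6% for *Erbb4*, against a median of 51.2% over the 33469 promoters of the same length. The GC box was in 30.5% of those promoters. It was in 6 of the 8 member promoters that had an entry. The E-box CACGTG of the circadian clock factors was in 5.59% of all promoters, the TATA box TATAAA in 12.9% and the cAMP response element TGACGTCA in 1.59%, none of them in a member promoter. CACGTG and TGACGTCA share the core letters ACGT, the others do not overlap, and a match is a description of the window.

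A gene was called when its Benjamini-Hochberg adjusted p in edgeR's quasi-likelihood test was below 0.05 and its fold change was at least 1.5. In MA24 against MA12, 2 of the 9 members were called, both receptors and both lower. Over all 10754 genes tested, 2.45% were called, 1.72% lower and 0.735% higher. Since this comparison had a part in the choice of the genes, nothing is read from the count. Of the 9 members, 6 had a negative and 3 a positive log2 fold change, with a median of -0.25 against -0.02 over all genes. The 2 groups did not overlap for 4 members, namely *Egfr* and *Egf*, lower in MA24, and *Erbb2* and *Nrg2*, higher in MA24. Groups did not overlap for 15.5% of all genes.

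*Egfr*, the receptor of EGF and TGF-alpha, had log2 CPM of 3.22, 3.25, 2.93 and 3.04 in MA12 rats 21, 31, 4N and 7N. In MA24 rats 9N, 14N, 15N and 16N the values were 2.60, 1.83, 2.16 and 1.86. Every MA24 rat lay below every MA12 rat. The non-addicted rats 9, 11, 12 and 13 had 2.29, 3.04, 2.64 and 3.03, a range that reached into both abstinence groups. Behind these values were 144 to 226 counts in MA12, 67 to 139 in MA24 and 92 to 165 in non-addicted rats. The group means were 3.11 ± 0.15 (SD, n = 4), 2.11 ± 0.36 and 2.75 ± 0.36 log2 CPM for MA12, MA24 and non-addicted rats. *Egfr* was 1.97-fold lower in MA24 than in MA12 (log2 fold change -0.98, SE 0.21, edgeR adjusted p = 0.0146).

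*Erbb4*, a neuregulin receptor, had log2 CPM of 3.76, 3.63, 3.27 and 3.03 in MA12 rats 21, 31, 4N and 7N. The MA24 rats 9N, 14N, 15N and 16N had 3.17, 1.54, 2.04 and 2.31. Rat 9N lay within the MA12 range, and the other 3 MA24 rats lay below it. Non-addicted rats 9, 11, 12 and 13 had 2.18, 3.06, 3.27 and 3.39, so that rat 9 sat among the MA24 values and the other 3 among those of MA12. Counts ran from 143 to 320 in MA12, from 57 to 207 in MA24 and from 85 to 233 in non-addicted rats. The means were 3.42 ± 0.33 (SD, n = 4) in MA12, 2.26 ± 0.68 in MA24 and 2.98 ± 0.55 in non-addicted rats. *Erbb4* was 2.10-fold lower in MA24 than in MA12 (log2 fold change -1.07, SE 0.27, edgeR adjusted p = 0.0279). Without rat 9N the log2 fold change was -1.48 (adjusted p = 0.00189).

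In the MA12 group, the only one with both kinds of rat number, both receptors were higher in the rats without N, a difference that was not tested. Within MA12, *Egfr* had a mean of 3.24 log2 CPM in the 2 rats without N and 2.98 in the 2 rats with N, and *Erbb4* had 3.70 and 3.15. Among rats numbered with N alone (2 MA12, 4 MA24) *Egfr* was still lower in every MA24 rat, with a log2 fold change of -0.84 (SE 0.27), but edgeR's adjusted p was 0.124. *Erbb4* then had a log2 fold change of -0.76 (SE 0.30, adjusted p = 0.225). With the kind of number as a covariate the values were -0.85 (adjusted p = 0.125) for *Egfr* and -0.77 (adjusted p = 0.239) for *Erbb4*, so that neither receptor kept its call within one kind of number. Since every MA24 rat had N, both fits rest on the same 2 MA12 and 4 MA24 rats and are not separate evidence. Calls over all genes also fell, from 264 to 116 among rats with N and 47 with the covariate. The *Erbb4* call was also lost without the variance filter (adjusted p = 0.0584), with a minimum of 10 counts in every library (adjusted p = 0.0551) and without 5 of the 8 rats in turn, namely MA12 21 and 31 and MA24 14N, 15N and 16N (adjusted p between 0.0572 and 0.0854). *Egfr* kept its call without each of the 8 rats.

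**Figure D1:**
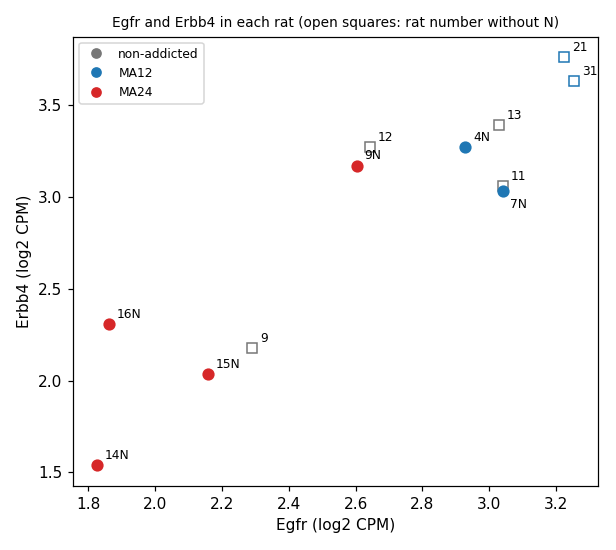
Level of *Egfr* (horizontal axis, log2 CPM) against *Erbb4* (vertical axis, log2 CPM), one point per rat and labelled with its number, with open squares for numbers without N. The MA24 rats 14N, 15N and 16N and the non-addicted rat 9 lie at the lower left, with *Erbb4* between 1.54 and 2.31, and MA24 rat 9N lies apart from its group at 3.17.

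Levels of *Egfr* and *Erbb4* went together over the rats, although the rank order of the rats differed in part. Pearson's r between them was 0.91 over the 12 libraries and 0.82 for deviations from the group means, the highest of the 36 pairs of members over the 12 libraries. The points share libraries, scaling and group differences, and the r is a description. Of the 36 pairs, 6 had r above 0.5 and 5 below -0.5, with a median of 0.24. The lowest was *Erbb4* with *Nrg2*, at -0.76 over 12 libraries and -0.54 within groups, and *Egfr* with *Nrg2* had -0.72 and -0.32.

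Among 10764 genes with a mean of at least 50 counts, the genes most like *Egfr* over the 12 libraries were *Polr3b*, a subunit of RNA polymerase III (r = 0.98), *Ddx6*, an RNA helicase of mRNA decay (0.95), *Dcp2*, the mRNA decapping enzyme (0.95), *Btrc*, an F-box protein of a ubiquitin ligase (0.95), and *Bbx* (0.94). Those most like *Erbb4* were *Dnajb14*, a J-domain cochaperone (r = 0.97), *Nsd1*, a histone H3 methyltransferase (0.97), *Tanc2*, a postsynaptic scaffold (0.96), *Itgb8*, an integrin subunit (0.96), and *Trpm3*, a cation channel (0.96). Both lists are the 5 highest values of r over the same 12 libraries and carry no test.

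Values of other gene groups lay beside these differences. The summed level of 8 markers of subventricular progenitors and neuroblasts, among them *Dcx* and *Mki67*, was 105 to 205 CPM in MA12, 89.7 to 113 CPM in MA24 and 110 to 177 CPM in non-addicted rats. All 8 had a negative log2 fold change in MA24 against MA12 (median -0.56), none was called, and none was at 0 in any library. In non-addicted against MA12 rats 6 were higher and 2 lower (median 0.16, none called). There *Egfr* (log2 fold change -0.35) and *Erbb4* (-0.42) were lower, and not called. In non-addicted against MA24 rats all 8 were higher (median 0.82, none called). Shares of all genes by sign were not counted. MA12 rats 4N and 7N, at 106 and 105 CPM, lay within the MA24 range. Over the 12 libraries this sum had r = 0.56 with *Egfr* and 0.45 with *Erbb4*, and 0.28 and 0.16 within groups. The 5 choroid plexus and ependymal markers tested were also all lower in MA24 than in MA12 (median -0.37), with none called. Summed levels of 10 striatal interneuron markers were 351 to 434 CPM in MA12, 387 to 455 CPM in MA24 and 356 to 381 CPM in non-addicted rats, with *Vip* at 0 in some libraries. Of the 9 interneuron markers tested in MA24 against MA12, 5 were higher and 4 lower (median 0.13). Of these, 1 was called, *Nos1*, which was lower, against the 2.45% of all genes called. A set of 91 genes was picked by symbols that begin with Rpl or Rps and a digit. It held cytosolic ribosomal protein genes, but also kinase genes such as *Rps6ka1* and some pseudogenes. Its summed level was 20757 to 23218 CPM in MA12, 21948 to 26309 CPM in MA24 and 20584 to 24213 CPM in non-addicted rats. Over the 12 libraries it had r = -0.73 with *Egfr* and -0.78 with *Erbb4*, and -0.54 and -0.64 within groups. The part of these groups in the receptor values was not tested.

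*Erbb3*, the neuregulin receptor of oligodendrocytes, had log2 CPM of 5.56, 5.25, 5.63 and 5.10 in MA12 rats 21, 31, 4N and 7N and 5.38, 4.71, 5.19 and 4.96 in MA24 rats 9N, 14N, 15N and 16N. The non-addicted rats 9, 11, 12 and 13 had 4.81, 4.94, 4.81 and 4.97, and every one of them lay below every MA12 rat. Their mean of 4.88 ± 0.09 (SD, n = 4) had the smallest SD of the 3 groups, against 5.38 ± 0.25 in MA12 and 5.06 ± 0.29 in MA24. In non-addicted against MA12 rats *Erbb3* was 1.44-fold lower (log2 fold change -0.52, SE 0.12), and it was not called at an edgeR adjusted p of 0.0699. Without MA12 rat 7N the log2 fold change was -0.59 (adjusted p = 0.0171) and the gene was called. Without each of the other 7 rats it was not called, with adjusted p from 0.0543 to 0.232, the highest without MA12 rat 4N (log2 fold change -0.42). DESeq2 gave an adjusted p of 0.0132 at a log2 fold change of -0.51, below the fold threshold, and edgeR with the kind of rat number as covariate gave 0.141. The summed level of 10 oligodendrocyte markers was 12536 to 18460 CPM in non-addicted, 13118 to 23180 CPM in MA12 and 19261 to 22734 CPM in MA24 rats, and all 10 had a negative log2 fold change in non-addicted against MA12 rats (median -0.20), with none called. Other marker lists moved in the same comparison. All 6 endothelial markers were lower (median -0.39) and 1 of them, *Kdr*, was called, against the 0.251% of all genes called. Their summed levels were 294 to 418 CPM in non-addicted and 397 to 518 CPM in MA12 rats. Of 11 striatal projection neuron markers tested 8 were lower and 3 higher (median -0.06), and 1 was called, lower. Of 6 tested choroid plexus and ependymal markers 5 were higher (median 0.72) and none was called, with summed levels of 32.6 to 82.4 CPM against 21.0 to 52.9 CPM and *Ttr* and *Kcnj13* at 0 in some libraries. The part of these lists in the *Erbb3* values was not tested. Between MA24 and MA12 *Erbb3* had a log2 fold change of -0.32 (SE 0.14, edgeR adjusted p = 0.181). Of the 10 oligodendrocyte markers 6 were then higher and 4 lower in MA24 (median 0.15). In non-addicted against MA24 rats all 10 were lower (median -0.36, none called), and *Erbb3* had a log2 fold change of -0.21 (SE 0.13, edgeR adjusted p = 0.410).

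*Erbb2*, the receptor with no known ligand, ran the other way. Its log2 CPM was 1.64, 1.45, 1.68 and 1.63 in MA12 rats 21, 31, 4N and 7N and 2.02, 1.85, 2.17 and 1.84 in MA24 rats 9N, 14N, 15N and 16N. The groups did not overlap, and the log2 fold change of 0.39 (SE 0.24) had an edgeR adjusted p of 0.338. Counts were low, from 53 to 72 in MA12 and from 66 to 92 in MA24. Non-addicted rats spanned 1.49 to 1.94 log2 CPM and overlapped with both groups.

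**Figure D2:**
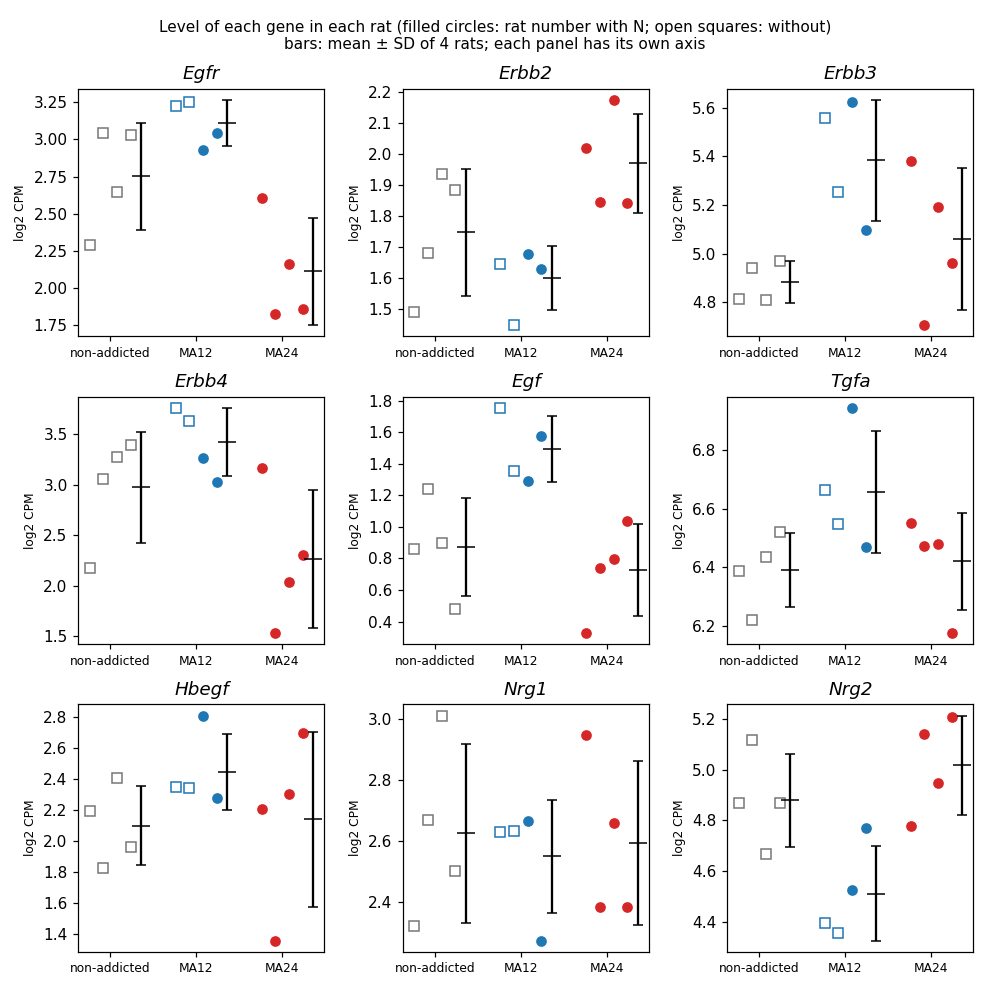
Log2 CPM of each of the 9 genes (vertical axes, a separate scale in each panel) in the 4 rats of each group, with filled circles for rat numbers with N and open squares for those without, and bars for the mean ± SD. *Egfr* and *Egf* lie lower, and *Erbb2* and *Nrg2* higher, in all MA24 rats than in any MA12 rat, and *Erbb3* is lower in every non-addicted rat than in every MA12 rat.

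Among the ligands, *Nrg2*, a neuregulin that binds ErbB3 and ErbB4, had log2 CPM of 4.40, 4.36, 4.53 and 4.77 in MA12 rats 21, 31, 4N and 7N. The MA24 rats 9N, 14N, 15N and 16N had 4.78, 5.14, 4.95 and 5.21. All MA24 values were higher than all MA12 values, although rat 7N and rat 9N nearly met. The 1.42-fold higher level in MA24 (log2 fold change 0.51, SE 0.13, edgeR adjusted p = 0.0264) passed the adjusted p and fell short of the fold threshold, and without rat 7N it passed both (log2 fold change 0.61, adjusted p = 0.0109). It no longer passed the adjusted p without MA12 rat 21 (0.0803) or 31 (0.0735) or without MA24 rat 14N (0.0643) or 16N (0.0806). Within one kind of rat number the log2 fold change was 0.39 (adjusted p = 0.250). Non-addicted rats had 4.67 to 5.12 log2 CPM, with a log2 fold change of 0.36 (SE 0.12, edgeR adjusted p = 0.219) against MA12.

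*Egf*, the ligand after which the family is named, had the fewest counts of the members. Its log2 CPM was 1.75, 1.36, 1.29 and 1.57 in MA12 rats 21, 31, 4N and 7N, 0.33, 0.74, 0.80 and 1.04 in MA24 rats 9N, 14N, 15N and 16N, and 0.86, 1.24, 0.89 and 0.48 in non-addicted rats 9, 11, 12 and 13. Every MA12 rat lay above every rat of the other groups. Counts of 50 to 78 in MA12, 27 to 37 in MA24 and 25 to 46 in non-addicted rats stood behind them. The log2 fold changes were -0.79 (SE 0.31, edgeR adjusted p = 0.128) in MA24 and -0.64 (SE 0.30, adjusted p = 0.388) in non-addicted rats against MA12, and *Egf* was not called in either comparison. Both share the MA12 rats.

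*Tgfa*, the striatal EGFR ligand, had 1367 to 2620 counts per library. Its log2 CPM was 6.66 ± 0.21 (SD, n = 4) in MA12, 6.42 ± 0.17 in MA24 and 6.39 ± 0.13 in non-addicted rats, with overlapping ranges. The log2 fold change was -0.24 (SE 0.12, edgeR adjusted p = 0.216) in MA24 and -0.28 (SE 0.11, adjusted p = 0.319) in non-addicted rats against MA12. *Hbegf*, the heparin-binding EGFR ligand, had 2.44 ± 0.25 log2 CPM in MA12, 2.14 ± 0.56 in MA24 and 2.10 ± 0.26 in non-addicted rats. The MA24 spread held the lowest *Hbegf* value of the 12 rats, 1.36 in rat 14N, beside the second highest, in rat 16N. *Nrg1*, the best studied neuregulin, had means of 2.55 ± 0.18, 2.59 ± 0.27 and 2.63 ± 0.29 log2 CPM in MA12, MA24 and non-addicted rats, differences smaller than the SD of each group. Levels were not compared between genes, because no transcript lengths were used.

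**Figure D3:**
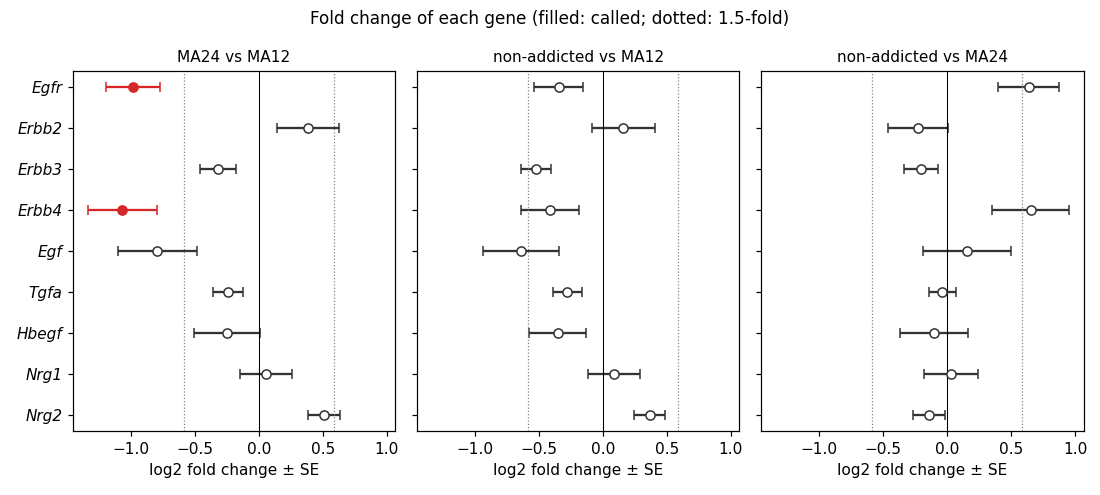
Log2 fold change ± SE (horizontal axis) of the 9 genes (vertical axis) in the 3 comparisons, with filled symbols for called genes and dotted lines at a fold change of 1.5. *Egfr* (-0.98) and *Erbb4* (-1.07) in MA24 against MA12 are the called values, and no gene is called in the comparisons with non-addicted rats.

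The non-addicted rats were then compared with each abstinence group. These comparisons share their MA12 and MA24 rats with the first one. In non-addicted against MA12 rats, edgeR called none of the 9 members, and DESeq2 none. Over all 10758 genes tested 0.251% were called, 0.102% higher and 0.149% lower. At an unadjusted edgeR p below 0.05 there were 4 members (*Erbb3*, *Nrg2*, *Tgfa* and *Egf*), against 12.3% of all genes. The groups did not overlap for 2 members, *Erbb3* and *Egf*, both lower in non-addicted rats, against 7.11% of all genes. The median log2 fold change of the members was -0.35, against -0.01 over all genes.

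In non-addicted against MA24 rats, edgeR and DESeq2 again called none of the 9 members. Of the 10744 genes tested 0.456% were called, 0.326% higher and 0.13% lower. Groups overlapped for every member, while they did not for 10% of all genes. At an unadjusted edgeR p below 0.05 there were 2 members, against 17.5% of all genes. These were *Egfr*, with a log2 fold change of 0.64 in non-addicted against MA24 rats (SE 0.23, adjusted p = 0.188), and *Erbb4*, with 0.65 (SE 0.30, adjusted p = 0.268). With each of the 8 rats left out in turn, the log2 fold change ran from 0.54 to 0.84 for *Egfr* and from 0.45 to 1.07 for *Erbb4*. The highest values were those without MA24 rat 9N (edgeR adjusted p = 0.112 and 0.0837), and neither gene was called without any rat. For the other 7 members the log2 fold change lay between -0.23 (*Erbb2*) and 0.15 (*Egf*). By group means the non-addicted rats stood between MA12 and MA24 for 5 of the 9 members, *Egfr*, *Erbb2*, *Erbb4*, *Nrg2* and *Egf*. For *Egfr* and *Erbb4*, the neighbours in this order (MA12 and non-addicted, non-addicted and MA24) were not called apart.

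Other ligands of the family were near the floor of detection. *Ereg* (epiregulin) had no count in any library, *Areg* (amphiregulin) had 0 to 4 counts and *Epgn* (epigen) 0 to 9 counts per library, and *Nrg4* had 1 to 10. *Btc* (betacellulin) had 2 to 13 counts in the libraries of both abstinence groups and 10 to 27 in non-addicted rats.

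The pathway around the receptors was examined over 83 genes in 6 lists, of which 77 had a row. In MA24 against MA12, 63 were tested and 1 was called, *Spred1*, an inhibitor of Ras signalling, against the 2.45% of all genes called. Its log2 CPM was 5.73, 5.30, 5.33 and 5.46 in MA12 rats 21, 31, 4N and 7N and 4.95, 4.65, 4.86 and 5.04 in MA24 rats 9N, 14N, 15N and 16N. The groups did not overlap, and the log2 fold change was -0.59 (SE 0.12, edgeR adjusted p = 0.0110), close to the fold threshold. Non-addicted rats 9, 11, 12 and 13 had 4.57, 5.40, 5.18 and 5.38, with rat 9 again the lowest. The *Spred1* call ended with the kind of rat number as covariate and among rats numbered with N, with DESeq2, with RLE size factors and with variance ranked without TMM. It also ended without MA12 rat 21 or 7N and without MA24 rat 14N or 15N.

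Other genes of these lists passed an adjusted p below 0.05 in MA24 against MA12 without reaching the fold threshold. Among them, and named here after their values were seen, were the Ras GTPase-activating proteins *Nf1* (log2 fold change -0.42) and *Rasa1* (-0.46), the Ras exchange factor *Sos1* (-0.35), the adaptor *Crk* (-0.44) and the ligand-shedding protease *Adam10* (-0.40), each lower in MA24. Of the 17 negative regulators tested, 16 had a negative log2 fold change (median -0.34), and of 24 adaptors and proximal effectors 16 did (median -0.21). The 10 kinase cascade genes tested divided into 4 higher and 6 lower, and the 6 ligand processing genes into 3 and 3. Of the 4 tested synaptic partners of ErbB4, which are PDZ scaffold proteins, 3 were lower and 1 higher. In the comparisons with non-addicted rats edgeR called none of the 61 genes tested. In non-addicted against MA12 rats 46 of the 61 had a negative and 15 a positive log2 fold change, and in non-addicted against MA24 rats 19 and 42. The median log2 fold change of the tested pathway genes was -0.18 in MA24 against MA12, where that of all genes was -0.02. In the comparisons of non-addicted rats with MA12 and MA24 it was -0.08 and 0.11, where those of all genes were -0.01 and 0.003. Shares of all genes by sign, or at an adjusted p below 0.05 alone, were not counted, so nothing is read from these counts.

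**Figure D4:**
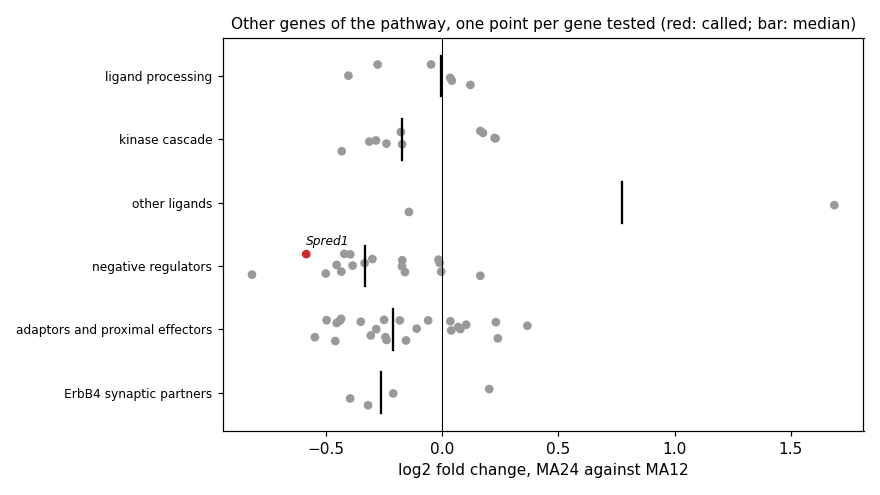
Log2 fold change in MA24 against MA12 (horizontal axis) of the 63 tested pathway genes that are not members, one point per gene by list (vertical axis), with a bar at each list's median and red for the called gene. *Spred1*, at -0.59, is the called gene, and 16 of the 17 negative regulators lie below 0.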

How the data were processed

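Striatal RNA of 12 rats was sequenced as poly-A selected, paired-end libraries. Raw read counts per gene symbol were deposited by the authors in 1 table. Cutadapt 1.18, STAR 2.7.0e, featureCounts, HTSeq 0.12.4 and build rn6 are named in the submitters' processing notes, without their roles. Whether counting used strand was not given in the sources used here, so reads of overlapping or antisense genes cannot be told apart. From the counts, each pair of groups was fitted alone with edgeR 4.0.16 (R 4.3.3), TMM factors and the quasi-likelihood test, after keeping genes with a mean count above 4 and removing the 15% of lowest variance. Called genes had a Benjamini-Hochberg adjusted p below 0.05 over all genes tested and a fold change of at least 1.5. DESeq2 1.42.0 was an alternative. For levels, log2 CPM was computed with TMM factors over 12 libraries and 2 as prior count. Replicates of a group differed by more than counting noise in all 18 pairs (chi-square per degree of freedom 9.72 to 28.0). Each library was 1 rat, and the batch label was the same for all. Groups came from the labels, with no replicate numbers shared between them. The fits were run on simulated counts with 200 genes changed 2-fold. Those counts took their spread from these data and held no effect of rat number, so the run says nothing on the calls reported here.

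The members, gene lists and tests were chosen with earlier results of these data known. By rule the text names all members, pathway genes called in any comparison and, for *Egfr* and *Erbb4*, the 5 genes of highest r among those with a mean of at least 50 counts. Beyond that rule, other pathway genes were named after their values were seen or where an alternative fit called them. Marker lists are given as counts and summed levels. Single markers are also named, some because they were called, and not every called marker is named. A further order of the filter steps (variance ranked without TMM) was added after seeing the data. The values of 1 gene of the pathway lists are not reported here.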

Additional observations from a re-analysis of the deposited data

Results flagged for a closer look

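In each group of 4 rats the gap between the highest or lowest value and its nearest neighbour, divided by the whole range of the group, was compared with Dixon's critical value for 4 values. Of the 27 groups examined (9 genes in 3 groups), 2 passed it, and 1.35 would do so by chance. *Nrg1* was low in MA12 rat 7N, at 2.27 log2 CPM, with a ratio of 0.909. *Hbegf* was high in MA12 rat 4N, at 2.81 log2 CPM, with a ratio of 0.858. Neither gene was called in any comparison.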

How the results depend on the processing

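Of the 2 members called in MA24 against MA12, 1 was left without the variance filter and 1 with at least 10 counts in every library. Among rats numbered with N 0 were left, and 0 when the kind of number entered as a covariate. Those 2 fits had fewer rats or degrees of freedom. Their log2 fold changes were also smaller (*Egfr* -0.84 and -0.85, *Erbb4* -0.76 and -0.77), and what ended the calls was not tested. Leaving out 1 rat gave 1 to 3. *Egfr* kept its call under 16 of 18 alternatives (log2 fold change -1.18 to -0.84) and *Erbb4* under 9 of 18 (-1.48 to -0.76). The 1 pathway gene called became 0 with DESeq2, with RLE size factors, with variance ranked without TMM, with the rats numbered with N and with the covariate, and 0 to 4 without 1 rat (4 without MA24 9N: *Crkl*, *Pik3r3*, *Socs4* and *Spred1*). In non-addicted against MA12 rats DESeq2 and the likelihood ratio test each called 1 pathway gene (*Stat5a*) in place of 0, and leaving out 1 rat gave 0 to 1 members and 0 to 1 pathway genes, both without MA12 7N (*Erbb3* and *Rps6ka1*). In non-addicted against MA24 rats members and pathway genes stayed at 0 under every alternative run. The log2 fold change changed sign only where 1 rat was left out, for *Nrg1* in MA24 against MA12 (-0.082 to 0.124, negative without MA12 7N or MA24 9N), in non-addicted against MA12 (-0.064 to 0.189, negative without non-addicted 12) and against MA24 (-0.117 to 0.171, negative without non-addicted 12, MA24 14N or MA24 16N), and against MA24 for *Tgfa* (-0.112 to 0.017, positive without non-addicted 11 or MA24 9N) and *Hbegf* (-0.311 to 0.103, positive without MA24 16N). The causes were not tested. Over all genes the number called ranged widely, for example 264 in MA24 against MA12, 47 with the covariate and 116 with the rats numbered with N, 27 in non-addicted against MA12 and 75 with DESeq2, 49 in non-addicted against MA24, 126 with DESeq2 and 0 without the variance filter. The kind of rat number could not be a covariate between non-addicted and MA24 rats, which share no kind. Low counts limit *Egf*, with 25 to 78 per library, *Erbb2*, with 52 to 92, and *Hbegf*, with 50 to 147. They also limit the 2 called receptors in MA24, where *Egfr* had 67 to 139 and *Erbb4* 57 to 207.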
